A study of Homo sapiens with 8 samples.

Results

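Wnt and Notch pathway genes held 79 of the 9962 single-base positions, and 30 of the 4945 genes, in a deposited table of N1-methyladenosine (m1A) positions from neuroblastoma cells. Members were chosen by gene symbol alone. The symbols were those of the Wnt ligands, their Frizzled and LRP receptors, Dishevelled, the destruction complex, catenins, TCF/LEF factors, Notch receptors and ligands, and the Notch and Groucho nuclear proteins. Each position was counted once per gene, and no member position was shared between members. The symbol rule also takes in relatives counted here as having no textbook role in either pathway. They are lipoprotein receptors of the LRP family, the adhesion catenins and CTNNBL1, a spliceosome-associated protein. These made up 8 of the 30 genes and 20 of the 79 positions, and they are kept apart below as other family members.

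The labels describe 8 samples of polyadenylated, fragmented RNA in 4 groups of 2: input and m1A immunoprecipitate of control cells, and the same of cells transfected with small interfering RNA against TRMT6 (siTRMT6). The line is written SK-N-BE in the titles and SK-N-AS in the cell line field; both names belong to established human neuroblastoma lines. Nothing in the labels says what the control cells received or whether replicates were separate cultures. The p-values fitted here therefore measure only the spread between libraries, which may be technical. The authors' deposited p-values pooled the replicates and do not measure that spread. Of the noradrenergic neuroblastoma markers, 9 of 12 had a listed position, among them PHOX2A, HAND2 and DBH, and so had 2 of 8 mesenchymal markers. None of the 8 markers of leukocytes, endothelium, epithelium or astrocytes had any. The 4 count columns, named by condition and number, were taken as reads of the m1A libraries.

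Wnt proteins bind Frizzled receptors and the co-receptors LRP5 and LRP6. Dishevelled then holds back the destruction complex of Axin, APC and the GSK3 kinases, so that beta-catenin builds up and works with TCF/LEF factors in the nucleus. Notch receptors are cut when a Jagged or Delta ligand on a neighbouring cell binds them, and the freed intracellular part recruits Mastermind-like proteins to switch on HES and HEY repressors. Groucho proteins, encoded by TLE genes, are co-repressors for both TCF and HES factors. In the sympathetic lineage that gives rise to neuroblastoma, both pathways are known for steering neural crest fate. TRMT6 is the partner of the catalytic subunit TRMT61A in an m1A methyltransferase.

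The sequence under a listed position could be read for NUMB, an inhibitor of Notch, and TLE3, a Groucho co-repressor. They are shown because they say which base the deposited table named. Each is printed 5′ to 3′ on the transcript strand with the listed base in capitals, from RefSeq promoter windows of build GRCh38.p14, the only sequence used here. Both lie on the reverse strand in 5′ UTR, NUMB at 73458597 of chromosome 14 and TLE3 at 70097926 of chromosome 15.
NUMB: gttagaagtaTgaaagagggt
TLE3: cattattttgTtacttttcag
The NUMB base had 7 reads in control 2, and the TLE3 base had 10 reads in siTRMT6 1. The listed base of both was a T, which is a U in RNA, and not an A.

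Over the whole table, 468 positions listed on a single strand fell in such a window. At all 127 of them in forward-strand transcripts the listed base was A, and at all 341 in reverse-strand transcripts it was T. Each of these bases was therefore an A on the forward strand of the genome. Among members, 56 positions in 18 genes were on the forward strand and 23 positions in 12 genes on the reverse strand. For the other 77 member positions the base was not read here. The reverse-strand members were DVL1, GSK3A, GSK3B, LRP6, LRP8, NUMB, HES6, HEY1, MAML2, MAML3, TLE1 and TLE3. Their values below are reads at a listed position, which was not an adenosine of the transcript at either of the 2 bases that could be read.

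Member genes held 43 of 8655 listed reads in control 1, 326 of 46007 in control 2, 243 of 40771 in siTRMT6 1 and 65 of 13812 in siTRMT6 2. Per 1000 listed reads this was 4.97, 7.09, 5.96 and 4.71. The conditions overlapped, control 2 being the highest library and siTRMT6 2 the lowest. Member positions had from 5 to 23 reads, with a median of 8, against 9 over the whole table. Of the 79 positions, 78 had reads in a single library, a share of 98.7% against 98.6% of all positions. Listed reads are those at listed positions, so the full depth of each library is unknown. Coding sequence alone held 55.7% of member positions (58.9% of all position and gene pairs), 5′ UTR alone 19.0% (10.8%) and 3′ UTR alone 15.2% (20.6%).

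**Figure D1:**
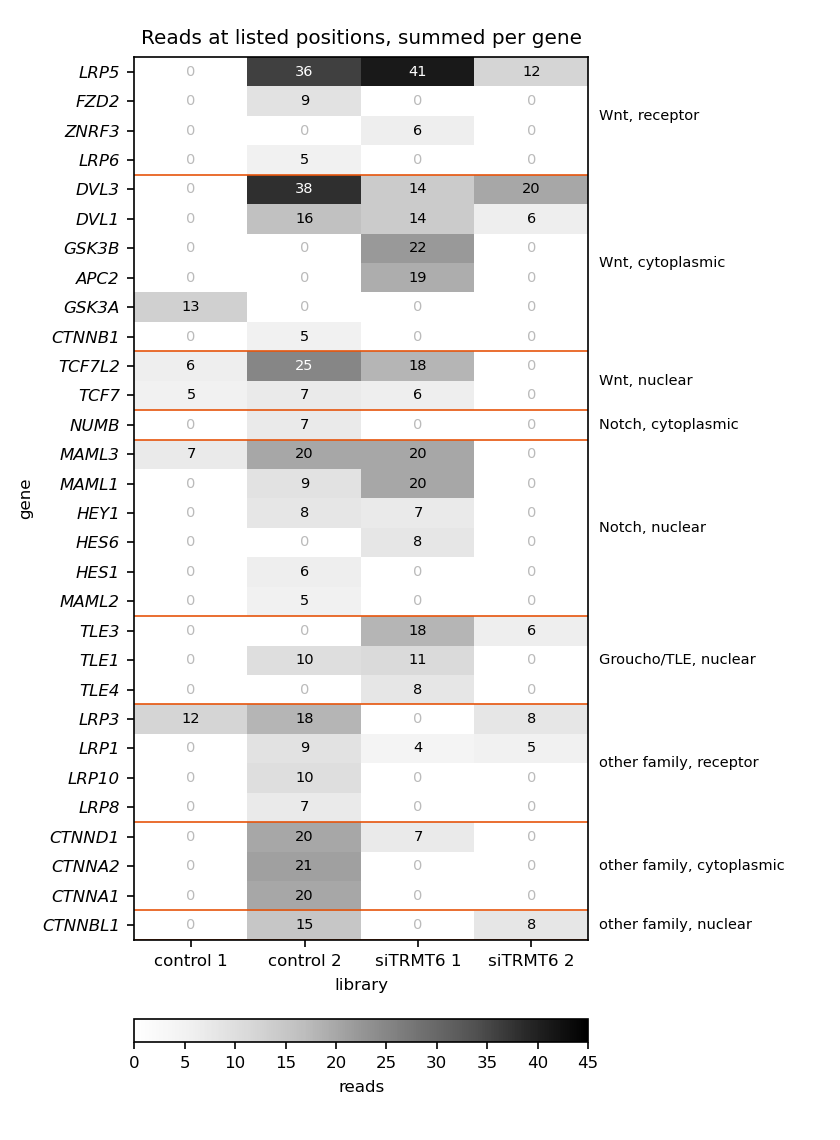
Reads at listed positions summed per gene (rows, grouped by pathway and step) in each of the 4 libraries (columns); each cell prints its number of reads and darker grey means more reads. LRP5 and DVL3 have the most reads, control 1 has reads in 5 genes, and siTRMT6 2 has none in the Notch rows.

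None of the 24 ligand symbols that the rule names had a listed position. Of these symbols, 19 were WNT genes and 5 were Jagged or Delta genes. Ligand genes outside the rule, such as DLK1, were listed and are described further below. The 4 Notch receptors were not listed either. Over all protein-coding symbols in the RefSeq gene table, 20.7% had a listed position. The members' share was 30.0% (30 of 100), with 28.6% of Wnt receptor genes, 60.0% of Wnt cytoplasmic genes, 40.0% of Wnt nuclear genes, 46.2% of Notch nuclear genes and 50% of Groucho genes. A gene without a listed position may still carry m1A, since the deposited table had been filtered on its p-value.

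LRP5, the Wnt co-receptor, was the most widely listed member. It had 12 positions, all in coding sequence on chromosome 11, and 9 of the 4945 genes had more. Summed over the gene it had 0 reads in control 1, 36 in control 2, 41 in siTRMT6 1 and 12 in siTRMT6 2. Control 2 had 9 reads at 68410040, 10 at 68411500, 8 at 68416502 and 9 at 68449060. SiTRMT6 1 had 6 reads at 68348128, 8 at 68390030, 7 at each of 68410043, 68416458 and 68423606, and 6 at 68433704. SiTRMT6 2 had 6 reads at each of 68386543 and 68389937. The positions ran from nucleotide 479 to nucleotide 4944 of the transcript, and those of the control lay among those of siTRMT6 from nucleotide 2324 onwards.

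At 2 places in LRP5 the conditions came close together. Control 2 at nucleotide 2324 and siTRMT6 1 at nucleotide 2327 were 3 nt apart, with 9 and 7 reads. Control 2 at nucleotide 3108 and siTRMT6 1 at nucleotide 3064 were 44 nt apart, with 8 and 7 reads. The authors' deposited table gave the first pair log2 fold changes of -4.35 and 3.62, because it compared single bases. Towards the transcript start, the 4 positions up to nucleotide 1668 all belonged to siTRMT6 libraries.

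**Figure D2:**
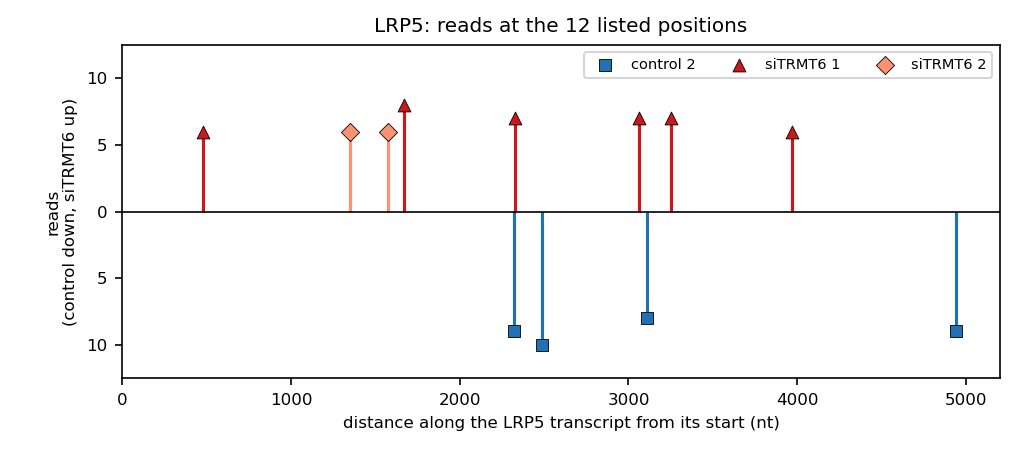
Reads (vertical axis, control downwards and siTRMT6 upwards) at the 12 listed LRP5 positions against distance from the transcript start in nt (horizontal axis); colour and symbol give the library. Control 2 and siTRMT6 1 stand 3 nt apart at nucleotides 2324 and 2327.

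The other Wnt receptor genes had 1 position each, all in coding sequence. LRP6, the second co-receptor, had 5 reads in control 2 at 12181312 of chromosome 12. FZD2, a Frizzled receptor, had 9 reads in control 2 at 44557830 of chromosome 17. ZNRF3, a ubiquitin ligase that removes Frizzled from the membrane, had 6 reads in siTRMT6 1 at 29049554 of chromosome 22. Without LRP5 the Wnt receptor genes held 20 reads, against 109 with it. RNF43, the partner ligase of ZNRF3, and the other 9 Frizzled genes had no listed position.

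Dishevelled carried most reads of the cytoplasmic Wnt step. DVL3 had 0, 38, 14 and 20 reads in control 1, control 2, siTRMT6 1 and siTRMT6 2. Its highest position, with 23 reads in control 2 at 184170816 of chromosome 3 (3′ UTR), was also the highest of all member positions. SiTRMT6 2 had 14 reads 99 nt away in coding sequence, at 184170717. Further upstream, control 2 had 15 reads at 184164826 and siTRMT6 1 had 14 at 184164850, a distance of 24 nt. The position at 184155752 had 6 reads in siTRMT6 2. DVL3 was thus read in both conditions at both of its paired places, always at different bases.

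DVL1 had 0, 16, 14 and 6 reads in the same order of libraries. Control 2 had 16 reads at 1336010 of chromosome 1 and siTRMT6 1 had 14 at 1335819, both in 3′ UTR and 191 nt apart. Its remaining position, in 5′ UTR, had 6 siTRMT6 2 reads. DVL2 was not listed.

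Members of the destruction complex were each read in 1 library. GSK3B, a kinase that marks beta-catenin for destruction, had 13 reads in 5′ UTR at 120093653 and 9 in 3′ UTR at 119826358 of chromosome 3, all in siTRMT6 1. Its paralog GSK3A had 13 control 1 reads in 5′ UTR, at 42240330 of chromosome 19. The deposited table therefore set the 2 kinases in opposite directions, with log2 fold changes of 4.52 and 3.99 for GSK3B and -4.89 for GSK3A. APC2, a neural relative of the scaffold APC, had 19 reads in siTRMT6 1 at 1469029 of chromosome 19, in coding sequence. CTNNB1, which encodes beta-catenin, had 5 reads in control 2 at 41225099 of chromosome 3. APC, AXIN1 and AXIN2 were not listed.

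Where all reads of a gene lay in 1 condition, the fold was taken against 3 counts over the libraries of the empty condition, after scaling by listed reads (54662 in control, 54583 in siTRMT6). Such a fold covers only the listed bases of a gene, which were kept because they differed. It is a lower bound there provided that a listed 0 stands for no reads at all, and the sources do not say so. On that reading GSK3B was at least 7.34-fold higher in siTRMT6, APC2 at least 6.34-fold higher and GSK3A at least 4.33-fold lower. Each of these values came from 1 library, so replicate spread could not be set beside it.

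TCF7L2, the TCF factor through which beta-catenin acts in many tissues, had 8 positions on chromosome 10 and 6, 25, 18 and 0 reads in control 1, control 2, siTRMT6 1 and siTRMT6 2. Within 6 nt of coding sequence, control 2 showed 6 reads at 113141299, siTRMT6 1 showed 6 at 113141303 and control 1 showed 6 at 113141305. Another pair lay 5 nt apart, control 2 with 6 reads at 113143982 and siTRMT6 1 with 6 at 113143987. The deposited table listed these as 3 lower and 2 higher positions, with log2 fold changes of -3.77 and 3.40. Summed over each place, log2 of siTRMT6 over control was -0.998 and 0.0021, scaled by listed reads. The place at 113141299 to 113141305 was thus read in 3 libraries with the same number of reads in each. Listed reads were 8655 in control 1, 46007 in control 2 and 40771 in siTRMT6 1, so equal reads were not equal shares.

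TCF7, a related factor, showed the same layout on chromosome 5. Control 1 had 5 reads at 134146484, siTRMT6 1 had 6 at 134146496 and control 2 had 7 at 134146520, a span of 36 nt annotated as coding sequence or 3′ UTR depending on the transcript. LEF1, TCF7L1 and CTNNBIP1, an inhibitor of beta-catenin, had no listed position.

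Among Notch members, all but 1 listed gene acted in the nucleus. MAML3, a Mastermind-like co-activator, had 7, 20, 20 and 0 reads in control 1, control 2, siTRMT6 1 and siTRMT6 2. In its 3′ UTR on chromosome 4, control 1 had 7 reads at 139717617, control 2 had 10 at 139717764 and siTRMT6 1 had 10 at 139717807. Another 3′ UTR position had 10 reads in siTRMT6 1 at 139719228, and a coding position had 10 in control 2 at 139719668. MAML1 had 9 control 2 reads and 20 siTRMT6 1 reads at 3 coding positions, with 12 of the latter at 179733159 of chromosome 5. MAML2 had 5 reads in control 2. The 3 co-activator genes thus held most of the reads of Notch members.

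The listed HES and HEY genes had 1 or 2 positions each. In HEY1, control 2 showed 8 reads at 79767855 and siTRMT6 1 showed 7 at 79767845 of chromosome 8, 10 nt apart in the 5′ UTR and within 19 nt of a transcript start. HES6 had 8 siTRMT6 1 reads in 5′ UTR, at 238239936 of chromosome 2. HES1 had 6 reads in control 2 at 194138303 of chromosome 3 (3′ UTR). NUMB, whose sequence is given above, was the only cytoplasmic Notch member listed. No Notch member had reads in siTRMT6 2, while Wnt members had 38 there. Notch genes outside the symbol rule also had 38 reads in that library.

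Of the 6 positions in Groucho genes, 5 were higher in siTRMT6, against 49.6% of all listed positions. SiTRMT6 1 alone gave 4 of these 5, so without it 1 higher position was left. TLE3 had 0 reads in both controls, 18 in siTRMT6 1 and 6 in siTRMT6 2. The reads lay at 70097926 (10 reads, siTRMT6 1) and 70097539 (6 reads, siTRMT6 2) of chromosome 15 in 5′ UTR, and at 70049647 (8 reads, siTRMT6 1) in 3′ UTR. At its listed bases, TLE3 was at least 8.01-fold higher in siTRMT6 if the controls truly had no reads there. Scaled by the listed reads of 1 siTRMT6 library, this bound was 7.92 without siTRMT6 1 and 8.04 without siTRMT6 2. All 3 values use bases that were listed because they differed, so none is separate support. TLE3 was the only member with reads in both siTRMT6 libraries and in neither control. TLE1 had 10 control 2 reads at 81688522 and 11 siTRMT6 1 reads at 81688710 of chromosome 9, 188 nt apart in 5′ UTR. TLE4 had 8 siTRMT6 1 reads, also in 5′ UTR, at 79572779 of the same chromosome.

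Other family members had 16 of 20 positions lower, against 50.4% of all listed positions, and 15 of those 16 came from control 2. CTNNA1 and CTNNA2, the alpha-catenins that tie cadherins to actin, had 20 and 21 reads, all in control 2 over 2 and 4 positions. CTNND1, p120-catenin, which stabilises cadherins, had 20 reads in control 2 over 3 positions and 7 in siTRMT6 1 at 57796816 of chromosome 11. CTNNBL1 had 10 control 2 reads at 37733058 and 8 siTRMT6 2 reads at 37733051 of chromosome 20, 7 nt apart, and 5 more control 2 reads elsewhere. For these catenins the lower direction therefore rested on control 2 alone.

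Among the LRP receptors counted as other family members, LRP3 had 12, 18, 0 and 8 reads in control 1, control 2, siTRMT6 1 and siTRMT6 2. They lay within 53 nt on chromosome 19, at 33207541 and 33207556 in coding sequence and at 33207594 in 3′ UTR. A non-coding transcript on the same strand, CTD-2540B15.13, covered all 3 bases, so its reads could not be told apart from those of LRP3. LRP1, a receptor for many extracellular ligands, held the only member position read in 2 libraries. The base at 57128925 of chromosome 12, in 5′ UTR, had 4 siTRMT6 1 reads and 5 siTRMT6 2 reads. The authors' deposited table gave it a log2 fold change of 3.99 (adjusted p = 0.0096). It gave the same values to the GSK3B base at 119826358, with 9 reads in 1 library, so they do not reflect replicate agreement. LRP1 also had 9 reads in control 2 at 57161089, in coding sequence. LRP10 and LRP8 had 10 and 7 reads in control 2.

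By the authors' deposited adjusted p below 0.05, 36 member positions were higher and 43 lower in siTRMT6. The share called higher was 45.6%, against 49.6% of all listed positions, and 50.4% of all positions were called lower. Those p-values pooled the replicates and came with a table that held only positions past the test, so each listed position had to differ. Among members, control positions were listed from 5 reads (deposited adjusted p = 0.0371) and siTRMT6 positions from 6 (deposited adjusted p = 0.0376). Lower positions thus had the lower listing floor. Wnt genes had 21 higher and 18 lower, and Notch genes 6 higher and 8 lower. Receptor genes had 11 of each, cytoplasmic genes 9 higher and 15 lower, and nuclear genes 16 higher and 17 lower. Without control 2 only 5 lower member positions remained, and without siTRMT6 1 only 9 higher ones.

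Compared by reads per 1000 listed reads, 4 of the 9 groups of genes by pathway and step did not overlap between conditions. Wnt receptor genes had 0, 1.09, 1.15 and 0.869 in control 1, control 2, siTRMT6 1 and siTRMT6 2. Wnt cytoplasmic genes had 1.502, 1.28, 1.69 and 1.88, both siTRMT6 libraries above both controls. This order rested on DVL1 and DVL3: without them the values were 1.502, 0.109, 1.01 and 0, control 1 being highest with GSK3A alone. Wnt nuclear genes had 1.27, 0.696, 0.589 and 0, both siTRMT6 libraries below both controls by a narrow gap. Notch nuclear genes had 0.809, 1.04, 1.35 and 0, with siTRMT6 1 highest and siTRMT6 2 at 0. Groucho genes had 0, 0.217, 0.908 and 0.434, both siTRMT6 libraries above both controls. Other LRP receptors had 1.39, 0.956, 0.098 and 0.941, both siTRMT6 libraries below both controls by a narrow gap. The Wnt cytoplasmic values rest on 6 genes, the Wnt nuclear values on 2, the Groucho values on 3 and the LRP values on 4. With 2 libraries a condition an exact two-sided permutation test cannot give a p below 0.333, and a full separation has that p. The 4 of 9 groups are therefore given as descriptions, and no share for groups of other genes was set beside them.

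**Figure D3:**
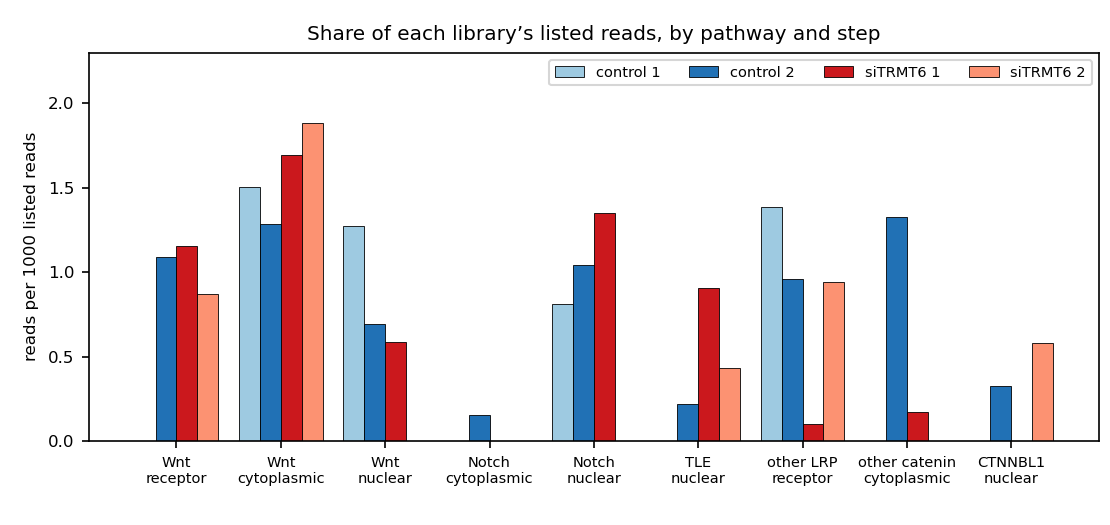
Reads per 1000 listed reads of a library (vertical axis) for member genes grouped by pathway and step (horizontal axis), 1 bar for each of the 4 libraries, with no error bars since each bar is 1 library. Wnt cytoplasmic genes run from 1.28 to 1.88, and Wnt nuclear genes from 0 to 1.27.

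Gene by gene, the same scale put both siTRMT6 libraries above both controls for LRP5 and TLE3, and below them for TCF7 and TCF7L2. That was 2 of 30 genes in each direction, against 8.23% of all genes higher and 4.65% lower. LRP5 had 0 and 0.782 per 1000 listed reads in the controls and 1.01 and 0.869 in siTRMT6, a narrow gap. TCF7 had 0.578 and 0.152 in the controls and 0.147 and 0 in siTRMT6. Its gap was narrower still, 7 reads in control 2 against 6 in siTRMT6 1. TCF7L2 had 0.693 and 0.543 in the controls and 0.441 and 0 in siTRMT6. Reads in a single condition were found for 17 of the 30 genes, against 60.9% of all genes, 11 in control (33.9% of all genes) and 6 in siTRMT6 (27.0% of all genes). Base by base, all 79 member positions had reads of 1 condition only, against 99.9% of all positions. The remaining 13 genes had reads in both conditions.

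Joining positions of a gene that lay within 200 nt of each other gave 61 member regions. Of these, 13 held reads of both conditions, or 33.3% of the 39 regions with control reads (28.8% over all genes). No region held 2 positions of the same library: within a gene, the nearest such positions, in MAML3, lay 1421 nt apart. In the 13 regions, log2 of siTRMT6 over control ran from -1.90 in LRP3 to 0.14 in TLE1, with a median of -0.32. Over the 1470 such regions of all genes the median was -0.15 (quartiles -0.46 and 0.08). LRP3 was the only one of the 13 that differed by at least 2-fold. Regions were listed in both conditions only where each had enough reads, which by itself favours ratios near 1.

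**Figure D4:**
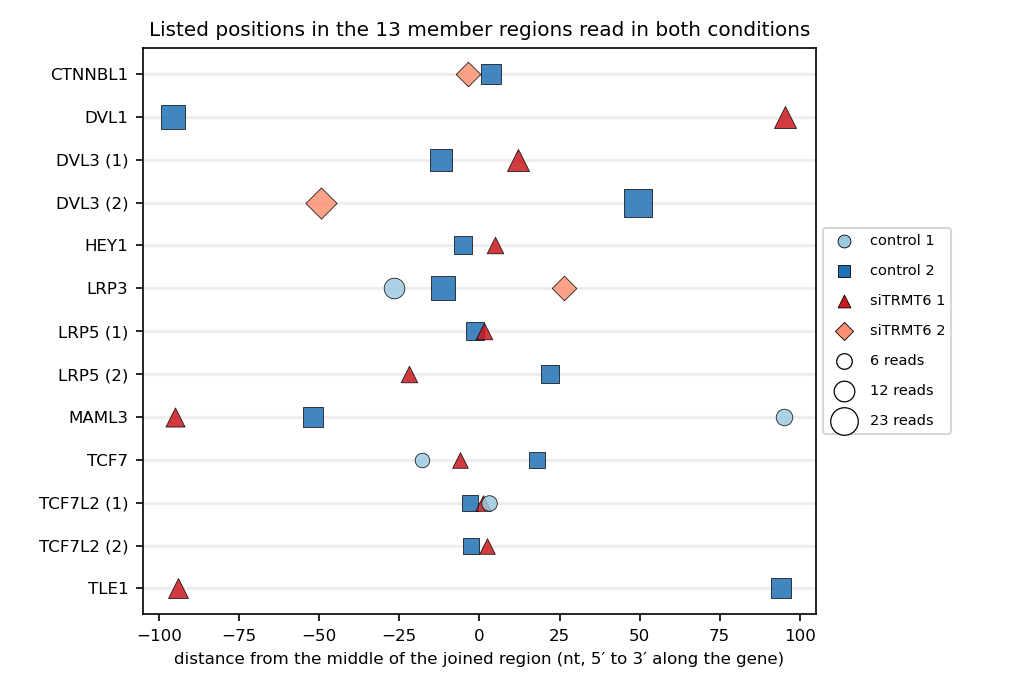
Distance of each listed position from the middle of its joined region in nt, 5′ to 3′ along the gene (horizontal axis), for the 13 member regions read in both conditions (rows; a number in brackets tells regions of 1 gene apart); colour and symbol give the library and symbol area grows with the reads. Control and siTRMT6 positions lie between 3 nt apart, in LRP5, and 191 nt apart, in DVL1.

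With the 2 libraries of a condition as replicates, edgeR's quasi-likelihood test called no member. No member position passed the filter on low counts, which 34 positions passed and 22 of them (64.7%) were called. Summed per gene, 6 members were among the 975 genes tested, and 0 of the 975 (0%) were called (126 had an unadjusted p under 0.05; DESeq2 called 1 gene, which is no member). TLE3 had a fitted log2 fold change of 6.57 in siTRMT6 with an unadjusted p of 0.0135 and an adjusted p of 0.386 in edgeR. It passed the filter through its siTRMT6 reads alone, at bases listed because they differed, so this p is no support for a difference. Its unadjusted p was 0.123 in DESeq2, and in edgeR 0.125 without the filter and 0.495 with the replicate block. An unadjusted p under 0.05 was reached by 12.9% of tested genes. LRP5, with 0.88, DVL3, with 0.52, MAML3, with -0.59, TCF7L2, with -0.88, and LRP3, with -1.25, each had an edgeR adjusted p of 0.9998. The median fitted value was 0.24 over the 975 genes tested, and 0.056 over the 1106 genes that passed the filter with equal library sizes. The DVL3 value was -0.16 with equal library sizes and that of LRP5 was -0.066 without control 1. Joined regions gave 0 calls of 525 (0%; 131 at an unadjusted p under 0.05, or 25.0%; DESeq2 called 1, no member), and the DVL3 and LRP3 regions tested had log2 values of 0.087 and -1.23, with an edgeR adjusted p of 0.9995 for both. Without input values, methylation and transcript level cannot be told apart in any of these reads, nor can fewer cells from less RNA per cell.

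A separate list held 96 Wnt and Notch genes that the symbol rule does not name, such as secreted inhibitors, planar polarity receptors, casein kinases, Notch-processing enzymes and co-repressors. Of these, 39 (40.6%) had a listed position, with 43 positions higher and 43 lower. CELSR2, a planar polarity cadherin, had 0, 56, 8 and 9 reads in control 1, control 2, siTRMT6 1 and siTRMT6 2, with 19, 19 and 18 of the control reads at separate coding positions. SPEN, a co-repressor of Notch targets, had 5, 33, 28 and 13 reads, so every library was represented. In its coding sequence on chromosome 1, siTRMT6 2 had 13 reads at 15935219, control 2 had 26 at 15935264 and siTRMT6 1 had 22 at 15935459. DLK1, a Delta-like protein counted there as a Notch ligand, had 49, 77, 30 and 12 reads. By pathway, 22 of 58 Wnt, 12 of 32 Notch and 5 of 6 shared co-regulator genes were listed.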

How the data were processed

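Reads were analysed from 2 control and 2 siTRMT6 m1A libraries. Per the submitters' processing notes, FastQC 0.11.3, STAR and build hg38 were used; how positions were called, counted and tested is not given in the sources used here. The deposited table gave whole-number read counts per position, not normalized. It also gave the authors' log2 fold change and the authors' p-value with its adjusted form, the largest p being 0.0478. Input values are not used here. Positions were listed from 0 and are written from 1.

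Each position was counted once per gene (25539 transcript lines in all). Counts of all positions, genes and regions joined within 200 nt were tested with edgeR 4.0.16 in R 4.3.3: TMM, filterByExpr (minimum count 10), quasi-likelihood test, Benjamini-Hochberg adjustment over all features, threshold 0.05. DESeq2 1.42.0, equal library sizes, no filter, left-out libraries and a replicate block were alternatives. The edgeR steps were tested on simulated data whose spread between libraries was far below the common dispersion of 2.6 fitted for genes. That test therefore does not give the power of the fits here. Intervals and floors cover counting error only.

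Members and gene lists were chosen with earlier results of these data known. All member genes are counted by role. Those named with reads are the up to 5 with most reads in each pathway and step, genes with 3 or more positions, genes with a region or position shared between libraries, and the core members. Bases came from RefSeq promoter windows (GRCh38.p14), which covered 2 of 79 member positions.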

Additional observations from a re-analysis of the deposited data

How the results depend on the processing

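The 22 position calls, none of them a member, fell to 0 with DESeq2 (14 at an unadjusted p under 0.05), with no filter, with the replicate block and with the replicate block with crossed numbers, and were 0 to 0 when each library was left out. With equal library sizes 29 of 37 positions were called. Gene calls were 1 in place of 0 with DESeq2 and 1 with the crossed replicate block. Region calls were 1 in place of 0 with DESeq2, and 0 under every other alternative run, the 50 nt and 500 nt joins included. At the authors' adjusted p below 0.01, 12 higher and 23 lower member positions were left, in place of 36 and 43. That cut was not even, since 8 reads had a deposited adjusted p of 0.0088 in control and 0.0146 in siTRMT6. Leaving out each library gave 9 to 36 higher (9 without siTRMT6 1) and 5 to 43 lower (5 without control 2). Members with a textbook Wnt or Notch role had 27 lower and 32 higher.

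Fitted log2 fold changes turned sign for DVL3 with equal library sizes (-0.16), without control 1 (-0.48) and without siTRMT6 2 (-0.31), for LRP5 without control 1 (-0.066), and without siTRMT6 2 for MAML3 (0.48) and TCF7L2 (0.18). Leaving out each library gave -0.48 to 7.23 for DVL3, -0.066 to 7.56 for LRP5 and -6.53 to 0.48 for MAML3. TCF7L2 had -1.30 without control 1 and 0.18 without siTRMT6 2, and did not pass the filter without control 2 or siTRMT6 1. The value of LRP3 kept its sign in all 9 alternatives. That of TLE3 cannot turn, since both controls had 0 reads, and TLE3 did not pass the filter with equal library sizes or without siTRMT6 1 or control 2. The cause of these changes was not tested. Over the 9 alternatives, which tested 4 to 30 member genes each, the lowest adjusted p of a member gene was 0.212 in edgeR, without control 2. The replicate numbers are not said to mark a shared culture, and same-numbered libraries deviated together at positions (correlation 0.335 over 140 positions) but not in genes (-0.12 over 2276) or regions (-0.17 over 1942). The crossed pairing was chosen after seeing the data, as was the fit without a filter for single genes. With 5 to 23 reads at a member position, smaller differences were not detectable.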

Other observations

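The T seen at NUMB and TLE3 was found at all 341 reverse-strand positions that could be read. The share of positions by strand could be counted over the whole deposited table. Of positions listed on a single strand, 74.2% lay in forward-strand genes, while 51.03% of protein-coding genes with a RefSeq promoter window are on that strand. Of listed genes with a window, 65.3% are on it. Among members, 70.9% of positions and 18 of the 30 listed genes were on the forward strand. Of the 82 member symbols with a window, listed or not, 43.9% are. Reverse-strand members had 12 higher and 11 lower positions, and forward-strand members 24 higher and 32 lower. The listed base was T on the transcript strand at 71.02% of 245 siTRMT6 positions and at 74.9% of 223 control positions (95% Wilson intervals 65.05 to 76.3 and 68.8 to 80.1), so the intervals overlapped. By region, it was T at 85.9% of 354 positions in 5′ UTR and at 27.1% of 70 in coding sequence. The strand of the gene fixed the base at all 468 positions, so these shares give only the mix of strands. On both strands together, an A stood just before the listed base at 9.21% of 467 positions and just after it at 11.4% of 466. Only positions inside promoter windows could be read, 468 of 9962. Of these 468, 341 were on the reverse strand, while 25.8% of all positions listed on a single strand were.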
